A study of Mus musculus with 8 samples.

Results

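The genes described here are 5 lipoprotein receptors, Lrp8, Vldlr, Lrp1, Lrp1b and Sorl1, and Mylip, a ubiquitin ligase that acts on such receptors. These 6 genes were taken by symbol from a table of 24942 mouse genes and all 6 were found, each in 1 row. The table holds RNA-seq of retinal ganglion cells, the neurons that carry signals along the optic nerve, isolated by immunopanning (capture on an antibody-coated plate) from mice on postnatal day 8. There were 4 libraries from NPC1-deficient mice and 4 from their wildtype littermates. The labels give the strain as balb/cnctr-npc1m1n/j, and by its name it carries a mutation of Npc1 in the germ line, so the deficiency is not limited to ganglion cells. The labels do not say how many animals went into a library or whether the libraries are separate preparations, so p-values below measure the spread between libraries only.

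NPC1 is a membrane protein of late endosomes and lysosomes that passes on the cholesterol released from lipoproteins after receptor uptake. The receptors of this family carry ligand-binding repeats on the cell surface, take lipoproteins and other ligands into endosomes, and 2 of them, Lrp8 and Vldlr, also serve in neurons as receptors for reelin. For some receptors of this family, the amount is set in part by sterol-responsive transcription factors or by ubiquitin ligases that send receptors to the lysosome.

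Each library held between 33030175 and 44050118 recovered reads. Npc1 had 139.8, 70.05, 67.6 and 66.1 normalized read counts in NPC1-deficient libraries 1 to 4, against 706.7, 753.8, 830.7 and 856.7 in wildtype libraries 1 to 4. The 2 groups did not overlap, and Npc1 fell by 3.25 on the log2 scale (adjusted p = 3.23e-05, limma). In another label field, the value wildtype stands for libraries 1 and 2 and the value homozygous for libraries 3 and 4, whichever genotype the title gives, which goes against the Npc1 levels. Groups here follow the titles and descriptions, and the fold change of each member is also given for libraries 1 and 2 and for libraries 3 and 4. All 12 ganglion cell markers were present, with summed levels of 269711 to 299999 in NPC1-deficient and 258458 to 272179 in wildtype libraries. Sex-linked transcripts differed with genotype: Xist ranged from 0 to 68.1 in NPC1-deficient and from 18.2 to 595 in wildtype libraries, and the sum of 4 Y-linked genes was 2597 to 3788 in NPC1-deficient libraries and 45.6, 3093, 1241 and 1508 in wildtype libraries 1 to 4. Wildtype library 1 stood apart, with the highest Xist and the lowest Y-linked sum. Without it the members had log2 fold changes of 0.14 for Lrp8, 0.15 for Vldlr, 0.37 for Lrp1, 0.33 for Lrp1b, 0.10 for Sorl1 and -0.09 for Mylip, and 0 of them passed, while 141 genes in all did. The part of sex in the values was not tested.

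All values are normalized read counts, that is, read counts divided by a size factor per library. Fold changes are NPC1-deficient over wildtype on the scale of log2(value + 1), tested with limma, with p-values adjusted over the 15386 genes with a mean of at least 10. All 6 members passed this minimum. None of the 6 passed an adjusted p of 0.05, where 0.104% of all genes tested did (6 higher and 10 lower in NPC1-deficient libraries). Counting genes at an unadjusted p under 0.05 gave 1 of the 6, Lrp1, against 6.76% of all genes. No member had groups without overlap, against 4.27% of all genes. The same count of 0 called, and of 1 at an unadjusted p under 0.05, came from edgeR's quasi-likelihood test, which called 16 genes in all, and from DESeq2, which called 246. The log2 fold change was above 0 for 5 members and below 0 for Mylip. Its median over the members was 0.08, beside 0.0050 over all genes tested, of which 52.0% had a value above 0.

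**Figure D1:**
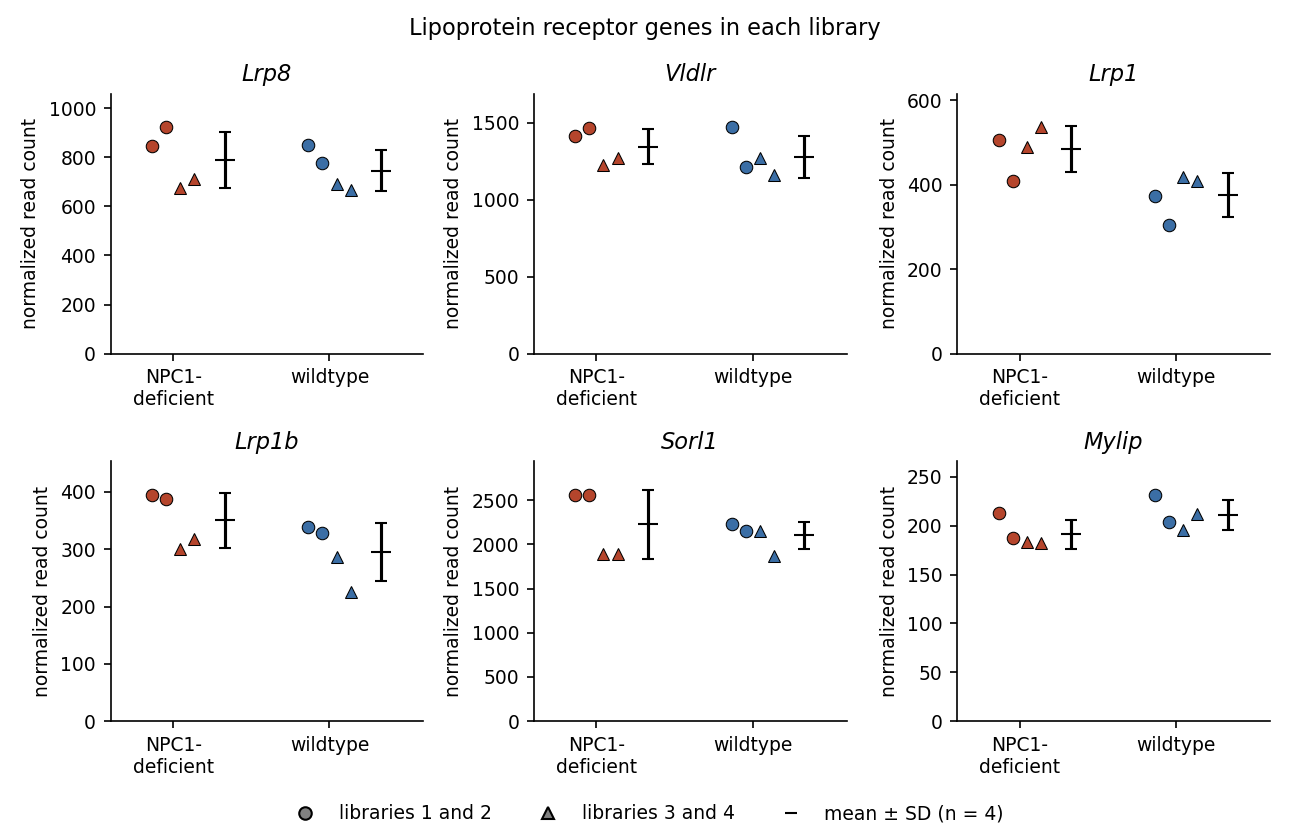
Normalized read counts of the 6 members in each library, NPC1-deficient on the left and wildtype on the right of each panel, with group mean and SD. Circles are libraries 1 and 2 and triangles libraries 3 and 4. The groups overlap in every panel, and 3 of the 4 NPC1-deficient values of Lrp1 lie above every wildtype value.

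Gene positions are those of GENCODE M21 on mm10. Lrp8 lies on chromosome 4 from 107802261 to 107876840 on the plus strand, and Vldlr on chromosome 19 from 27216484 to 27254231 on the plus strand. Lrp1 lies on chromosome 10 from 127538161 to 127621148 and Sorl1 on chromosome 9 from 41964720 to 42124297, both on the minus strand. Lrp1b lies on chromosome 2 from 40595246 to 42653624 on the minus strand, and Mylip on chromosome 13 from 45389742 to 45412022 on the plus strand. Reads were counted over whole genes, so splice forms cannot be told apart. The library kit does not mark strand, and 1.63% of the exonic length of Sorl1 is shared with Gm16214 on the opposite strand. Lrp1b shares 0.42% of its exonic length with Gm27348 on its own strand.

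Promoters are shown for the members with the largest fold change in each direction, Lrp1 and Mylip. The sequences come from RefSeq on GRCm38.p6 and cover the 250 bases before the annotated start, on the gene's strand, which is chr10:127621149-127621398 on the minus strand for Lrp1 and chr13:45389492-45389741 on the plus strand for Mylip. Capitals mark a GC box, GGGCGG on either strand.
Lrp1: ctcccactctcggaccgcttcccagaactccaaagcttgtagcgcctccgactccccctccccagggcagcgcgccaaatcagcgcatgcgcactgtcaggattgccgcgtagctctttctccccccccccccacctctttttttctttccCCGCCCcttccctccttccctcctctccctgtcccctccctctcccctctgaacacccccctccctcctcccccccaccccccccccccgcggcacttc
Mylip: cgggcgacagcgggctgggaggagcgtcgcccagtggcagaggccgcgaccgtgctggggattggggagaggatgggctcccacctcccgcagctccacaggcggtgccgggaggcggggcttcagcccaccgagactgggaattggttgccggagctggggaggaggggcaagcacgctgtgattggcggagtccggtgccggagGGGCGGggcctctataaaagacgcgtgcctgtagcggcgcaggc
In the windows of 300 bases that end 50 bases after the start, GC content was 67.7% for Lrp1 and 71.0% for Mylip, against a median of 52.7% over 32851 RefSeq promoters. RefSeq windows were found for 5 of the 6 members, 9 windows in all. A sterol-regulatory letter pattern, TCACNCCAC, and a direct repeat of the kind that liver X receptors bind, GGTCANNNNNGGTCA (AGGTCA repeats 4 bases apart, with any base in place of each leading A), were searched on both strands; 0 of the 9 windows held either. Of all promoters, 1.24% held the sterol-regulatory pattern and 0.0761% the direct repeat. The GC box was in 4 of the 9 windows and in 35.7% of all promoters. A match or its absence describes only the letters in these windows.

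Levels can be compared between genes only per length of transcript, here normalized read counts per kilobase of merged exons. Sorl1 was the most abundant member, at 196 ± 34.1 per kilobase in NPC1-deficient and 186 ± 13.9 in wildtype libraries (SD, n = 4 each, as for all values given with ±). Vldlr followed at 134 ± 11.3 in NPC1-deficient and 127 ± 13.4 in wildtype libraries, and Lrp8 at 74.9 ± 10.9 in NPC1-deficient and 70.9 ± 7.92 in wildtype libraries. Mylip had 59.2 ± 4.58 per kilobase in NPC1-deficient and 65.2 ± 4.72 in wildtype libraries. The 2 largest receptors were lowest, Lrp1 at 27.4 ± 3.08 in NPC1-deficient and 21.2 ± 2.93 in wildtype libraries and Lrp1b at 14.7 ± 2.03 in NPC1-deficient and 12.4 ± 2.14 in wildtype libraries. The order was the same in both groups, and each gene stood above the next in 4 of 4 libraries of each group, except that Lrp8 stood above Mylip in 3 of the 4 wildtype libraries. Among the genes tested, these levels lay between percentile 19.2 for Lrp1b and 60.2 for Sorl1 in NPC1-deficient libraries, and between 16.1 and 59.2 in wildtype libraries.

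**Figure D2:**
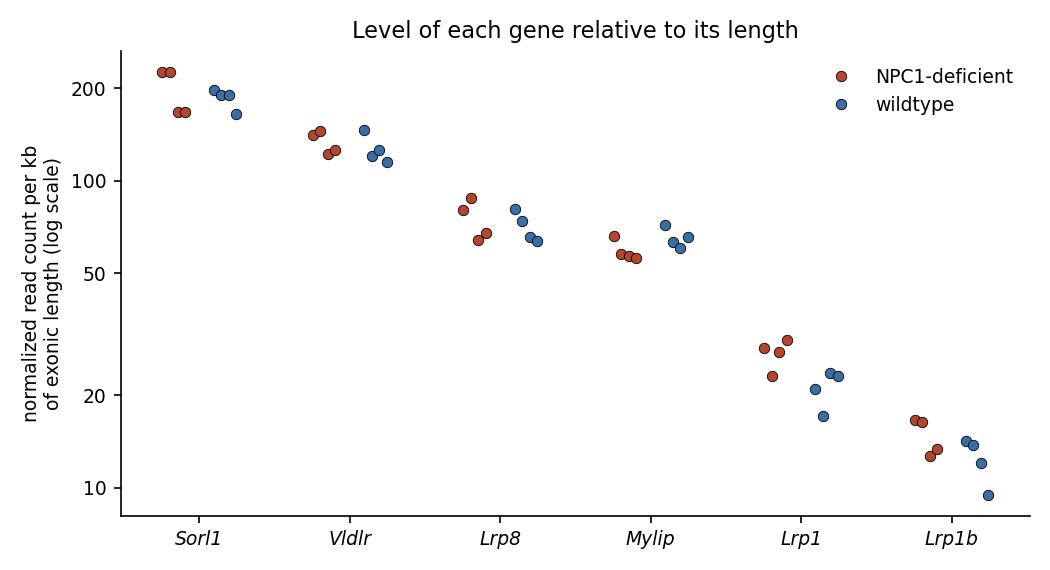
Level of each member per kilobase of exon on a log axis, NPC1-deficient left of wildtype, with 1 point per library. Sorl1 and Vldlr stand highest and Lrp1 and Lrp1b lowest in both groups.

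Lrp8 and Vldlr are the receptors through which reelin acts on neurons, by way of the adaptor Dab1. Lrp8, also called apolipoprotein E receptor 2, had 843.9, 921.6, 674.8 and 711.4 normalized read counts in NPC1-deficient libraries 1 to 4, against 848.1, 778.1, 690.8 and 666.6 in wildtype libraries 1 to 4. Libraries 1 and 2 were the high ones in both groups, and only NPC1-deficient library 2 lay above every wildtype library. NPC1-deficient over wildtype, Lrp8 had a log2 fold change of 0.07 (SE 0.11, 95% interval -0.16 to 0.31, adjusted p = 0.995, limma). Vldlr, the very low density lipoprotein receptor, had 1415.7, 1463.9, 1227.5 and 1270.0 in NPC1-deficient libraries 1 to 4, against 1468.2, 1210.0, 1270.7 and 1159.1 in wildtype libraries 1 to 4. Its highest value was that of a wildtype library, and the groups overlapped. Its log2 fold change was 0.08 (SE 0.08, 95% interval -0.11 to 0.26, adjusted p = 0.995, limma). Both intervals leave out a doubling or a halving of the transcript, which would be a log2 change of 1 or -1.

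Within a library, the ratio of Lrp8 to Vldlr does not depend on how libraries are scaled. Per kilobase it was 0.559 in both groups, with a log2 ratio of -0.84 ± 0.09 in NPC1-deficient and -0.84 ± 0.10 in wildtype libraries. The difference did not pass (exact two-sided permutation p = 1.0, adjusted over 2 ratios 1.0). It was 0.0074 on the log2 scale in libraries 1 and 2 and -0.01 in libraries 3 and 4.

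Lrp1 and Lrp1b are large endocytic receptors of similar build. Lrp1 clears many ligands, apolipoprotein E and alpha-2-macroglobulin among them, and is made by neurons, glia, macrophages and vascular muscle, while Lrp1b is mainly a neuronal receptor with slower uptake. Lrp1 had 506.4, 408.3, 489.5 and 535.9 normalized read counts in NPC1-deficient libraries 1 to 4, against 372.7, 303.8, 418.6 and 408.2 in wildtype libraries 1 to 4. All 4 NPC1-deficient values lay above the wildtype median and 3 of them above every wildtype library; the groups overlapped through NPC1-deficient library 2 and wildtype library 3. The means were 485 ± 54.6 in NPC1-deficient and 376 ± 51.9 in wildtype libraries. The log2 fold change was 0.37 (SE 0.12, 95% interval 0.12 to 0.63, unadjusted p = 0.00809, limma), a fold of 1.29 with an interval of 1.08 to 1.54. The adjusted p was 0.333, and it ranged from 0.123 to 0.690 over 21 alternative settings. The exact two-sided permutation p was 0.0571, where 4 libraries against 4 allow no value under 0.0286. By unadjusted p, Lrp1 ranked 374 of 15386 genes, and 7.68% of all genes had a fold change at least as large in either direction.

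Markers of other retinal cell types that a ganglion cell preparation can carry along, some of which also make Lrp1, were read beside it. Microglial markers were lower in NPC1-deficient means for 14 of 14 genes, with summed levels of 1383 to 2932 in NPC1-deficient and 2513 to 12912 in wildtype libraries. Müller glia markers were lower for 6 of 8 genes, with sums of 17886 to 18138 in NPC1-deficient and 18207 to 19577 in wildtype libraries. Vascular markers were lower for 4 of the 7 in the table, with sums of 504 to 690 in NPC1-deficient and 577 to 874 in wildtype libraries. Rod markers were lower for 8 of 8, with sums of 1845 to 2594 in NPC1-deficient and 3179 to 8298 in wildtype libraries. Amacrine markers were lower for 7 of 7, with sums of 1413 to 2096 in NPC1-deficient and 2446 to 4719 in wildtype libraries. Markers of cones were lower for 5 of 5, of bipolar cells for 6 of 6 and of horizontal cells for 3 of 3. Astrocyte markers were lower for 2 of 4, with sums of 211 to 271 in NPC1-deficient and 224 to 244 in wildtype libraries. Pigment epithelium markers were lower for 2 of 4 but higher in sum, at 274 to 342 in NPC1-deficient and 235 to 282 in wildtype libraries. No marker of these lists was at 0 in all libraries, and their part in the values of the members was not tested. In RNA of a whole cell preparation, fewer cells of a type and less RNA per cell cannot be told apart.

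Lrp1b had 394.7, 388.2, 300.9 and 317.0 normalized read counts in NPC1-deficient libraries 1 to 4, against 338.5, 328.0, 287.1 and 226.1 in wildtype libraries 1 to 4. Libraries 1 and 2 were the high ones in both groups, as for Lrp8. Its log2 fold change was 0.25 (SE 0.14, 95% interval -0.05 to 0.56, adjusted p = 0.856, limma). The ratio of Lrp1 to Lrp1b per kilobase was 1.72, 1.41, 2.18 and 2.27 in NPC1-deficient libraries 1 to 4, against 1.48, 1.24, 1.95 and 2.42 in wildtype libraries 1 to 4. Libraries 3 and 4 had the higher ratios in both groups, and the difference between genotypes, 0.12 on the log2 scale, did not pass (exact two-sided permutation p = 0.686, adjusted over 2 ratios 1.0). That difference was 0.20 in libraries 1 and 2 and 0.03 in libraries 3 and 4.

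Sorl1 is a sorting receptor of the VPS10 family that also carries the ligand-binding repeats of lipoprotein receptors, and it moves the amyloid precursor protein between endosomes and the Golgi with the retromer complex. It had 2558.2, 2558.6, 1888.1 and 1892.6 normalized read counts in NPC1-deficient libraries 1 to 4, against 2235.3, 2148.5, 2145.2 and 1872.3 in wildtype libraries 1 to 4. NPC1-deficient libraries 1 and 2 were above every wildtype library, while NPC1-deficient libraries 3 and 4 were below 3 of the 4 wildtype libraries. Over all libraries the log2 fold change was 0.07 (SE 0.11, 95% interval -0.16 to 0.30, adjusted p = 0.995, limma). It was 0.22 in libraries 1 and 2 and -0.08 in libraries 3 and 4. The difference between these, -0.31 (SE 0.10), was tested as an interaction after the data were seen and did not pass over all genes (unadjusted p = 0.0113, adjusted p = 0.240, limma), where 0.078% of all genes did. At an unadjusted p under 0.05 this interaction took in 13.4% of all genes.

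The other members gave smaller differences between the 2 sets of libraries, with adjusted interaction p from 0.806 for Lrp8 to 0.956 for Mylip (limma). In libraries 1 and 2, and in libraries 3 and 4, the log2 fold change was 0.12 and 0.03 for Lrp8, 0.11 and 0.04 for Vldlr, 0.43 and 0.31 for Lrp1, 0.23 and 0.28 for Lrp1b, and -0.12 and -0.16 for Mylip. Within a genotype, Lrp1 was the 1 member with lower levels in libraries 1 and 2 than in libraries 3 and 4, at 89.2% in NPC1-deficient and 81.8% in wildtype mice. Lrp8 stood at 127% in NPC1-deficient and 120% in wildtype mice on the same measure, and Sorl1 at 135% in NPC1-deficient and 109% in wildtype mice. What the label field that separates these libraries records, a batch or something else, is not given in the sources used here.

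Mylip, also called Idol, is a ubiquitin ligase that tags receptors of this family, Vldlr and Lrp8 among them, for breakdown, and its gene is a target of liver X receptors, which oxysterols activate. It had 213.3, 187.1, 183.1 and 181.7 normalized read counts in NPC1-deficient libraries 1 to 4, against 231.4, 203.8, 195.8 and 211.7 in wildtype libraries 1 to 4. Of the NPC1-deficient values, 3 of 4 lay below every wildtype library, and NPC1-deficient library 1 lay inside the wildtype range. The means were 191 ± 14.8 in NPC1-deficient and 211 ± 15.3 in wildtype libraries. Mylip had a log2 fold change of -0.14 (SE 0.10, 95% interval -0.36 to 0.08, adjusted p = 0.950, limma; exact two-sided permutation p = 0.114). Mylip had the fewest reads of the 6 members, 168 to 236 per library, and counting error alone gives a coefficient of variation of 7.03%. The observed one was 7.74% in NPC1-deficient and 7.24% in wildtype libraries.

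**Figure D3:**
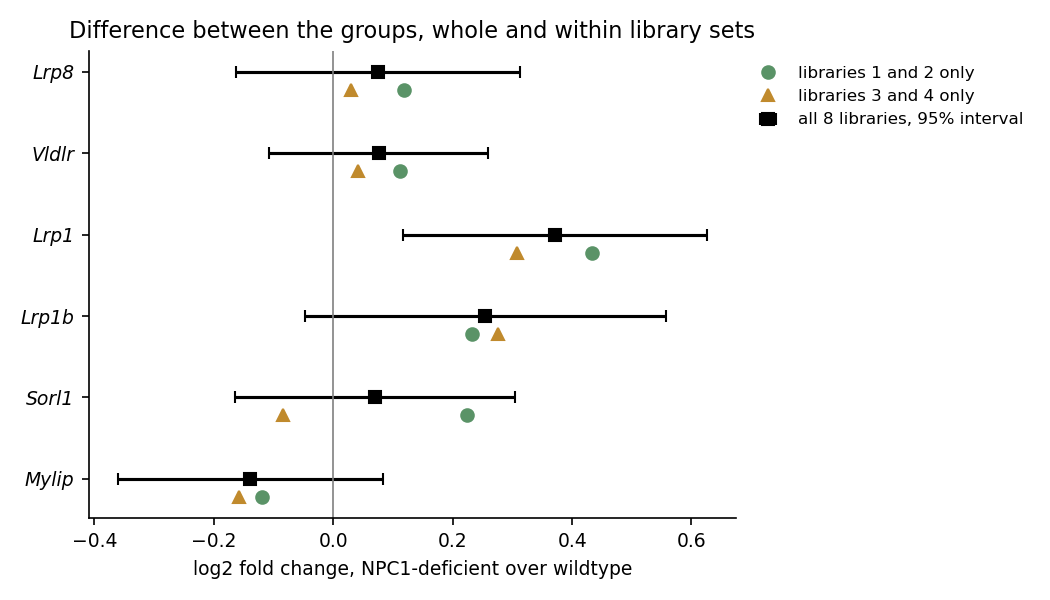
Log2 fold change of each member, NPC1-deficient over wildtype, over all libraries with its 95% interval (limma), and for libraries 1 and 2 and libraries 3 and 4 alone. The interval of Lrp1 lies above 0 before adjustment, and the values of Sorl1 in the 2 sets of libraries lie on either side of 0.

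The make-up of the receptor pool was compared as each receptor's share of the summed level per kilobase of the 5 receptors, without Mylip. Sorl1 made up 43.8 ± 2.23% of it in NPC1-deficient and 44.5 ± 1.29% in wildtype libraries. Lrp1 made up 6.23 ± 1.28% in NPC1-deficient and 5.12 ± 0.924% in wildtype libraries. Its share was 5.81, 4.62, 7.03 and 7.48% in NPC1-deficient libraries 1 to 4, against 4.58, 4.13, 5.66 and 6.12% in wildtype libraries 1 to 4. The groups overlapped over all libraries. The difference in share was not tested. Lrp1b made up 3.29 ± 0.0644% in NPC1-deficient and 2.96 ± 0.339% in wildtype libraries. Messenger levels say nothing of how much receptor protein stood on the cell surface.

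The partners of these receptors were read in 8 lists, of which 81 genes were tested. Of them 1 was called, the ligand gene Apoe, which is 1 of 9 ligand genes tested. At an unadjusted p under 0.05 there were 5, or 6.17%, close to the 6.76% of all genes, and the median log2 fold change was 0.01. The 9 relatives of the receptors had 0 called, with 2 fold changes above and 7 below 0 and a median of -0.02. Lrp12, the relative with the smallest p, had 5028 ± 267 normalized read counts in NPC1-deficient and 5550 ± 349 in wildtype libraries (log2 fold change -0.14, SE 0.06, adjusted p = 0.623, limma). Lrp4, a receptor for agrin at the neuromuscular junction, had 96.5 ± 9.27 in NPC1-deficient and 122 ± 28.7 in wildtype libraries (adjusted p = 0.861, limma). The 4 other VPS10 receptors had 0 called and a median of 0.05. Sorcs1, the one with the smallest p, had 2161 ± 395 in NPC1-deficient and 1988 ± 123 in wildtype libraries (adjusted p = 0.994, limma). Its log2 fold change was 0.30 in libraries 1 and 2 and -0.09 in libraries 3 and 4, on either side of 0 as for Sorl1, and the interaction did not pass (limma, adjusted p = 0.200). The 5 chaperones of receptor folding had 0 called, and Lrpap1, the chaperone that keeps ligands off new receptors, had 5405 ± 512 in NPC1-deficient and 5303 ± 91.8 in wildtype libraries.

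Of the ligands, Apoe, which encodes apolipoprotein E and is made mainly by glia and macrophages, had 814 ± 160 normalized read counts in NPC1-deficient and 2082 ± 764 in wildtype libraries. The ranges were 639 to 1018 in NPC1-deficient and 1340 to 3143 in wildtype libraries, without overlap. It fell by 1.31 on the log2 scale (SE 0.21, adjusted p = 0.0482, limma). Without any 1 of the 4 NPC1-deficient libraries, or without wildtype library 2 or 3, the adjusted p lay between 0.0668 and 0.151 (limma). The log2 fold change of Apoe was -0.83 in libraries 1 and 2 and -1.78 in libraries 3 and 4. The interaction did not pass (unadjusted p = 0.00823, adjusted p = 0.229, limma). Microglial marker sums averaged 2380 in NPC1-deficient and 7675 in wildtype libraries. Müller glia marker sums averaged 18023 in NPC1-deficient and 18907 in wildtype libraries. Glul and Dkk3 were the largest in that sum, at 7242 and 8167 in NPC1-deficient and 7812 and 8234 in wildtype means. Rlbp1 had 516 in NPC1-deficient and 726 in wildtype means and Slc1a3 138 and 253, and of the 8 markers 6 were lower and 2 higher. The part of these cell types in the level of Apoe was not tested. Reln, the reelin gene, had 12722 ± 1236 in NPC1-deficient and 12087 ± 1318 in wildtype libraries (log2 fold change 0.08, adjusted p = 0.995, limma).

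The 18 adaptors and genes of reelin signalling had 0 called, with 9 fold changes on each side of 0. Dab1, the adaptor that Lrp8 and Vldlr use for the reelin signal, had 419 ± 24.1 normalized read counts in NPC1-deficient and 509.5 ± 77.8 in wildtype libraries. Its ranges of 404 to 455 in NPC1-deficient and 458 to 625 in wildtype libraries did not overlap, with a log2 fold change of -0.27 (SE 0.10, adjusted p = 0.531, limma). Gulp1, an engulfment adaptor that binds Lrp1, had 27.5 ± 4.24 in NPC1-deficient and 58.0 ± 38.0 in wildtype libraries (adjusted p = 0.761, limma). The 11 genes of endosomal sorting had 0 called. Gga3, an adaptor that sorts cargo at the Golgi and endosomes, had 1256 ± 29.3 in NPC1-deficient and 1328 ± 40.7 in wildtype libraries, without overlap (log2 fold change -0.08, adjusted p = 0.924, limma). Also without overlap, Vps35, a retromer subunit, had 20197 ± 268 in NPC1-deficient and 19368 ± 557 in wildtype libraries (log2 fold change 0.06, adjusted p = 0.928, limma). The 14 genes of proteolysis and ubiquitin had 0 called, with 11 fold changes above 0. Usp8, a ubiquitin protease of endosomes, had 556 ± 125 in NPC1-deficient and 465 ± 32.1 in wildtype libraries (adjusted p = 0.891, limma).

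The 11 genes of sterol-regulated transcription had 0 called, with 7 fold changes above and 4 below 0. Insig1, which holds the sterol sensor Scap in the endoplasmic reticulum, had the smallest p of them, with 10790 ± 1134 normalized read counts in NPC1-deficient and 8542 ± 632 in wildtype libraries. Its ranges of 9425 to 11949 in NPC1-deficient and 7774 to 9190 in wildtype libraries did not overlap. The log2 fold change was 0.33 (SE 0.08), with an adjusted p of 0.113 (limma) that ranged from 0.00559 to 0.311 over 21 alternatives. Srebf2, which encodes a sterol-regulatory transcription factor, had 6813 ± 562 in NPC1-deficient and 6258 ± 288 in wildtype libraries (log2 fold change 0.12, adjusted p = 0.812, limma).

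**Figure D4:**
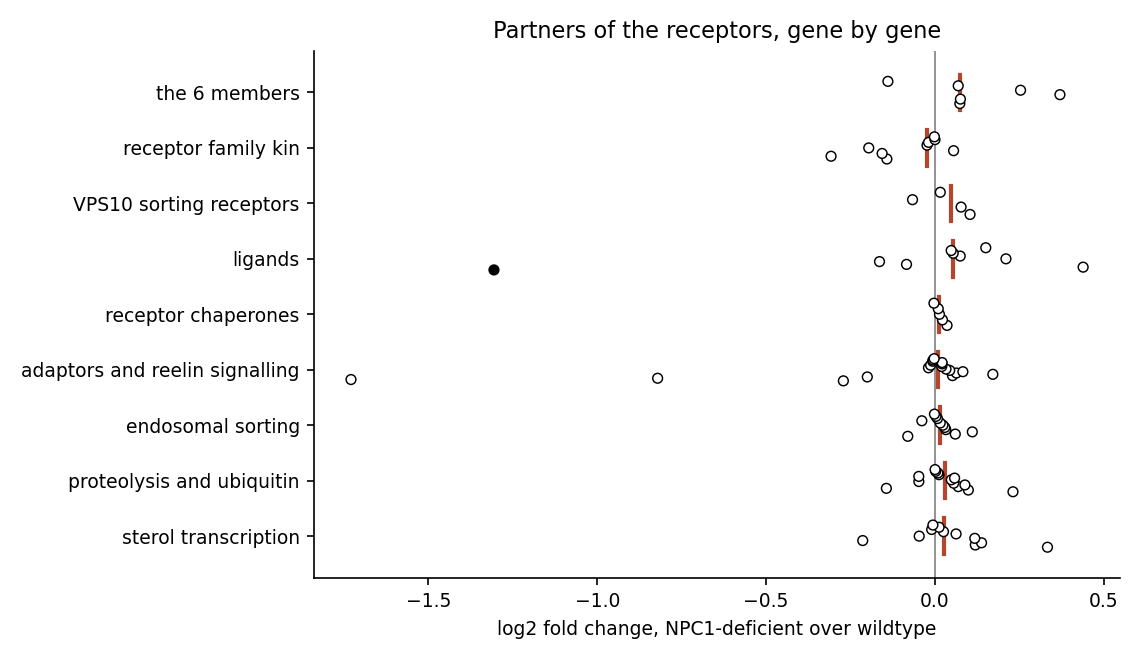
Log2 fold change, NPC1-deficient over wildtype, of the tested genes in each of the 8 lists, with 1 point per gene, a red bar at the list's median and a filled point for the gene called over all genes tested. The medians lie between -0.02 and 0.05, and the 1 called gene is Apoe.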

How the data were processed

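RNA was sequenced from 8 libraries made with the TruSeq RNA v2 kit, per the labels' protocols. The deposited values are a signal, read counts divided by a size factor per library. The submitters' processing notes name mm10, CASAVA 1.8.2, HTSeq 0.5.4p3 and DESeq2 1.0.19 without their roles, with aligner and gene annotation not given in the sources used here. Division by the smallest step of each library gave whole reads (within 1e-06) for 100% of 199536 values.

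Groups follow titles and descriptions. Values were taken as log2(value + 1) and genes with a mean of at least 10 (15386; 9556 left out) were fitted with limma 3.58.1 (trend, R 4.3.3), Benjamini-Hochberg threshold 0.05, after tests on simulated data. Single ratios were compared by exact permutation (python 3.11.15, numpy 2.4.6). edgeR 4.0.16 (TMM, quasi-likelihood) and DESeq2 1.42.0 were run on the recovered reads as alternatives, and other pseudocounts, minimums, scalings and left-out libraries were tried. Exon lengths came from GENCODE M21, which holds 98.1% of the gene IDs.

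The members and lists were chosen with earlier results of these data known. Named genes are the members, Npc1, any called gene of a list, otherwise up to 3 of a list by p, and 2 genes most alike in profile to each member. Not every gene the rule names is printed. Reln, Sort1 and the Müller glia markers given by name, outside the rule, were chosen after their values were seen. The interaction and the alternatives for Apoe and Insig1 were added after the data were seen. Some genes of the lists are not reported here.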

Additional observations from a re-analysis of the deposited data

Results flagged for a closer look

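Npc1 in NPC1-deficient library 1 was far from the other libraries of its group, at 139.8 normalized read counts, against 66.1 to 70.05 in NPC1-deficient libraries 2 to 4. Its gap to the nearest library was 0.946 of the group's range, above Dixon's 95% critical value for 4 samples. It stood at 17.8% of the wildtype mean. Among the 18 groups of values screened, members included, chance flags about 1 in 20. Without this library, the log2 fold changes of the members kept their sign except for Sorl1, which stood at -0.0032.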

How the results depend on the processing

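The number of members called was 0 under 21 of 21 alternatives, and Lrp1, Lrp1b, Vldlr, Mylip and Npc1 kept their direction and their side of the threshold in 21 of 21. The count of all genes called, 16, was less stable, at 10 with a minimum of 50, 99 with the label field as a term, 57 in libraries 1 and 2 only, 307 in libraries 3 and 4 only and 246 with DESeq2; leaving out 1 library gave 2 (without NPC1-deficient 3) to 141 (without wildtype 1). The log2 fold change of Lrp8 ran from -0.0048 (without NPC1-deficient 2) to 0.14 when 1 library was left out, that of Sorl1 from -0.0033 to 0.14, and Sorl1 was -0.0842 in libraries 3 and 4 only. With 1 library left out, the difference in the Lrp8 to Vldlr log2 ratio ran from -0.0386 to 0.0447 and that of Lrp1 to Lrp1b from -0.0384 (without wildtype 2) to 0.28. The causes were not tested. The replicate block called 34 genes and 0 members. Over all genes tested, deviations of same-numbered libraries from their group means had correlations of -0.017, -0.033, -0.023 and -0.066. For both receptor ratios, the libraries stood in the same order by number in both groups. Whether the numbers pair libraries is not given in the labels, and these correlations do not settle it. Apoe kept its call under 12 of 21 alternatives, and Insig1 gained one under 3. Under every setting the median of all genes stayed within 0.0105 of 0. Depth limits Mylip most, at 168 to 236 reads.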

Other observations

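For each member, the genes whose mean-centred profile over the 8 libraries was most alike were found by the root mean square difference of log2 values, with nothing assumed of function. For Sorl1 these were Astn1 (0.0310) and Scn2a1 (0.0385), where the spread of the Sorl1 profile itself was 0.172. For Lrp8, with a spread of 0.165, they were Adcy1 (0.0334) and Dhx29 (0.0356). For Vldlr, with a spread of 0.123, they were Gm12835 (0.0346) and Clip2 (0.0354). Lrp1, with the widest spread of 0.248, had no partner as near, at 0.0770 for Gm15351 and 0.101 for Fmo1. Lrp1b, with a spread of 0.239, had Itga7 (0.0736) and Mybl1 (0.0837). Mylip, with a spread of 0.114, had Tsr2 (0.0318) and Pcdhb12 (0.0401).

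The VPS10 receptors Sort1, Sorcs1, Sorcs2 and Sorcs3 stood in libraries 1 and 2 at 126%, 136%, 128% and 130% of libraries 3 and 4 in NPC1-deficient mice, beside 135% for Sorl1. In wildtype mice they stood at 112%, 103%, 107% and 103%, beside 109% for Sorl1. These 5 genes share libraries and scaling. The pattern was noticed in the data. The fold change was lower in libraries 3 and 4 than in libraries 1 and 2 for 49 of the 81 genes in the lists. Sort1, Sorcs1, Sorcs2 and Sorcs3, in which the pattern was noticed, were themselves among these 49, so the count is not separate from it. Of the 15386 genes tested, 7696 had this sign, an even split that cannot show whether the pattern is shared. Whether the 5 VPS10 receptors differ from other genes in this was not tested. At an unadjusted p under 0.05 the interaction (limma) took in 17 of the 81, Sorcs1 among them, a larger share than the 13.4% of all genes. The difference between these shares was not tested.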
